A study of Drosophila melanogaster with 12 samples.

Results

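The dpr, DIP, beat and side genes of *Drosophila* were followed in mRNA from larval central nervous systems (CNSs) that lack the insulator protein CTCF, or that were labelled as lacking its partner Cp190. Members were all genes whose FlyBase symbol places them in 1 of these 4 families, whatever their expression. They were 54 of 17510 counted genes, namely 21 dpr genes (*dpr1* to *dpr21*), 11 DIP genes (alpha to lambda), 14 beat genes (*beat-Ia*, *-Ib*, *-Ic*, *-IIa*, *-IIb*, *-IIIa*, *-IIIb*, *-IIIc*, *-IV*, *-Va*, *-Vb*, *-Vc*, *-VI* and *-VII*) and 8 side genes (*side* and *side-II* to *side-VIII*). The question was whether these genes, which are used by small sets of neurons, change when either protein is removed.

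The data were read counts from 12 libraries of poly(A)-selected mRNA in 4 groups of 3 biological replicates. Each replicate pooled 60 CNSs dissected from larvae of the third instar, without separating males and females. CTCF0 larvae carried a pair of independently isolated *CTCF* knockout alleles and came from mothers whose germline had no CTCF, so neither maternal nor zygotic CTCF was supplied. Larvae labelled Cp190KO carried 2 independent CRISPR alleles in which the *Cp190* reading frame was replaced, and may still have held maternal Cp190. Each mutant was compared with w1118 wild type (WT) of its own experiment. The CTCF0 experiment was sequenced as paired-end reads and the Cp190KO experiment as single-end reads on another instrument.

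Dpr and DIP proteins are cell surface proteins of the immunoglobulin superfamily, and the members of both families bind each other in defined pairs across the membranes of neighbouring cells. Individual neuron types of the fly carry their own combinations of them, and pairs such as DIP-alpha with Dpr6 and Dpr10 help neurons to find and keep their synaptic partners. Beat proteins are related immunoglobulin proteins that bind Side proteins in the same manner. In the classic case, motor axons carrying Beat-Ia leave their bundle and grow along a path marked by Side.

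Between 11652548 and 21522453 reads per library were counted on genes. A count of 3, used as the floor for a library, was worth 0.139 to 0.257 CPM (counts of a gene per 1000000 reads counted on genes), and this floor covers counting error only. Levels below are CPM after the libraries were scaled to each other. *CTCF* in CTCF0 fell to 5.54% of its WT level (log2 fold change -4.17, edgeR quasi-likelihood test, Benjamini-Hochberg adjusted p = 6.5e-05). *Cp190* was at 86.1% of WT in the libraries labelled Cp190KO (log2 fold change -0.22, SE 0.29, adjusted p = 0.81), so its counts did not bear out the label. Counts are per gene and do not separate the replaced reading frame from the rest of the exons. Whether the reading frame was present was therefore not tested, and every direction given below for these libraries rests on their label. Replicate 3 labelled Cp190KO had 375 genes with 1 to 3 counts, against 1738 to 2199 in the other libraries. All 4 neuron markers (*elav*, *nSyb*, *Syt1*, *brp*), all 4 neuroblast markers and all 4 glia markers were present in every library, as the labelled tissue should have. In bulk tissue, a lower count from fewer cells of a type and one from less RNA per cell cannot be told apart.

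The members are long genes that make little mRNA in whole CNSs. Together they took 0.0686% to 0.176% of the counts of a library. Their genes spanned 3.74 to 379 kb with a median of 36.2 kb, and their exons summed to a median of 3515 bp, against 2242 bp for the genes tested in CTCF0. In the dm6 genome, 21 members lie on chromosome arm 3R, 16 on 2L, 7 on 2R, 4 on 3L, 5 on X and 1 on 4. Members of a family lie within 100 kb of each other in 11 pairs, and the closest of these is the pair of *dpr6* and *dpr10*, 8093 bp apart. A gene was tested if it had at least 1 CPM in at least 3 libraries, and 53 of the 54 members were tested in every comparison. The exception was *beat-IIIa*, which was listed at 0 counts in all 12 libraries. All of its 4457 bp of exon are also annotated to *CG34106* on the same strand, also at 0 counts, and reads that belong to both genes may not have been assigned to either. Its expression was therefore not measured here.

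Levels in WT are given per length, as CPM per kb of exon. In the WT control of CTCF0, the dpr family had a median of 6.33 CPM per kb, the beat family 5.75, the side family 3.63 and the DIP family 2.16. Among dpr genes, which encode ligands and receptors for DIPs, *dpr21* was highest at 40.4 ± 9.29 CPM per kb (SD, n = 3) and *dpr6* lowest at 1.35 ± 0.416. *dpr21* has the shortest annotated exons of all members (993 bp), which raises a level per kb if part of its transcript is not annotated. Among DIP genes, *DIP-gamma* was highest at 14.1 ± 1.65 CPM per kb and *DIP-alpha* lowest at 1.17 ± 0.392. *DIP-alpha* was the lowest of all 53 members in both WT controls. In the beat family, *beat-IIa*, which encodes a binding partner of Side-IV, was highest at 39.9 ± 5.66 CPM per kb, and *beat-Ib* was the lowest member detected at 2.68 ± 0.567. In the side family, *side-VII* was highest at 8.43 ± 0.695 CPM per kb and *side-III* lowest at 1.68 ± 0.255.

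The order was similar at its ends in the WT control of Cp190KO, where *beat-IIa* (24.3 ± 2.23 CPM per kb), *dpr21* (21.7 ± 4.09), *dpr5* and *dpr7* led and *dpr6* and *DIP-alpha* (0.570 ± 0.0843) came last. The lowest of the beat and side families were there *beat-Ic* (1.22 ± 0.388 CPM per kb) and *side-IV* (1.11 ± 0.0330). Neighbours in the order were seldom apart. The libraries of 50 of 53 adjacent pairs overlapped in the WT control of CTCF0, and those of 49 of 53 in the WT control of Cp190KO. Each 53 includes the pair of *DIP-alpha* with the unmeasured *beat-IIIa*, which could not overlap. Reads of *side-IV* are less certain than the others, since most of its exons lie opposite annotated antisense genes. These had few counts of their own. The strand setting of the counting is not given, so reads in the overlap may have been assigned to neither gene.

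**Figure D1:**
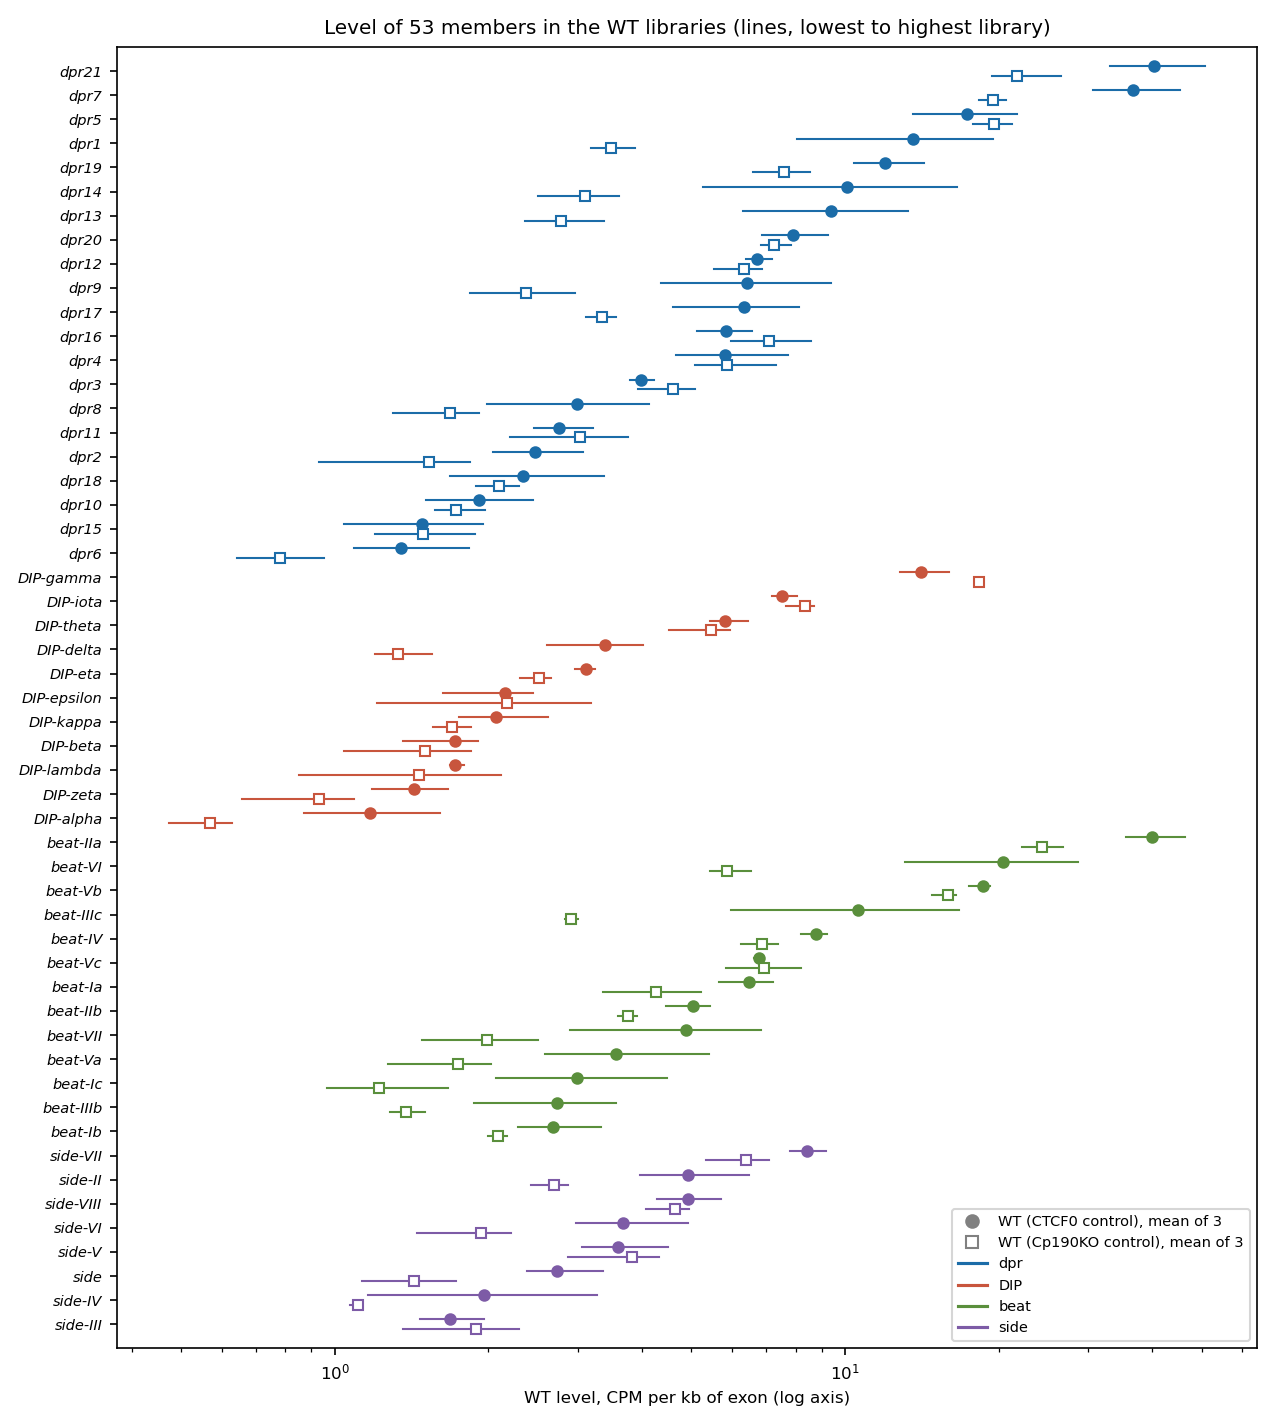
Level of each of the 53 members with counts in the WT libraries, in CPM per kb of exon on a log axis, by family (colour). Filled circles are means of the 3 WT libraries of the CTCF0 experiment, open squares those of the Cp190KO experiment, and lines run from the lowest to the highest library. *dpr21*, *beat-IIa* and *dpr7* stand at the top of both sets (40.4, 39.9 and 36.6 against 21.7, 24.3 and 19.5 CPM per kb), and *DIP-alpha* at the bottom.

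A set of members differed in level between both WT controls. With all 12 libraries on a common scale, *dpr1*, a gene named for taste-driven proboscis extension, had 47.6 ± 19.9 CPM (SD, n = 3) in the WT control of CTCF0 and 13.1 ± 1.36 CPM in that of Cp190KO, a ratio of 3.63. *beat-IIIc* (ratio 3.40), *beat-VI* (3.23), *dpr13* (3.13), *dpr14* (3.03) and *dpr9* (2.51) followed; these were named after their values were seen. The 3 libraries of the first control lay above all 3 of the second for 28 of 53 members, against 22.5% of all genes tested, and below them for 3 members, against 19.1%. The median log2 ratio was 0.30 over the members and 0.00 over all 8954 genes. The controls differ in read type, instrument and experiment, which cannot be told apart, so no member was compared across experiments other than through its own WT.

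Replicates of a group were unlike each other in how much of the families they carried. In CTCF0 replicate 2, 49 of 53 members were below their mean over the 6 libraries of the experiment, with a median deviation of -0.64 on the scale of log2(CPM + 0.5), and 39 of them had their lowest value there, against 33.4% of all genes. In CTCF0 replicate 3, 51 members were above their mean (median 0.44). In replicate 1 labelled Cp190KO, 42 members were above (median 0.69) and in replicate 2 labelled Cp190KO 42 were below (median -0.52). Of all genes, 48.9% and 54.4% were above their mean in CTCF0 replicates 2 and 3, and 51.0% and 57.9% in replicates 1 and 2 labelled Cp190KO. The WT libraries were closer together, with medians from -0.21 to 0.22. All 4 families shared this shift, for example with medians of -0.54 (dpr), -0.39 (DIP), -0.72 (beat) and -0.66 (side) in CTCF0 replicate 2.

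The same libraries stood apart for other long genes. Genes with over 4 kb of exon had median deviations of -0.46 in CTCF0 replicate 2, 0.38 in CTCF0 replicate 3, and 0.62 and -0.46 in replicates 1 and 2 labelled Cp190KO. Genes with exons of 2881 to 4826 bp, the middle range of the members, deviated less than the members did (-0.24, 0.24, 0.06 and -0.01). Neuron markers were also uneven, with summed levels of 406 to 821 CPM over CTCF0 libraries and 210 to 918 CPM over libraries labelled Cp190KO, against 531 to 721 and 324 to 517 CPM in their WT controls. The part of exon length or of neuron content in the shift of the members was not tested. The median coefficient of variation of a member between replicates was 35.6% in CTCF0 and 49.0% in Cp190KO-labelled CNSs, against 21.3% and 14.6% in their WT controls. For all genes it was 22.7% and 19.9% in the mutants, against 11.6% and 13.9% in their WT controls.

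**Figure D2:**
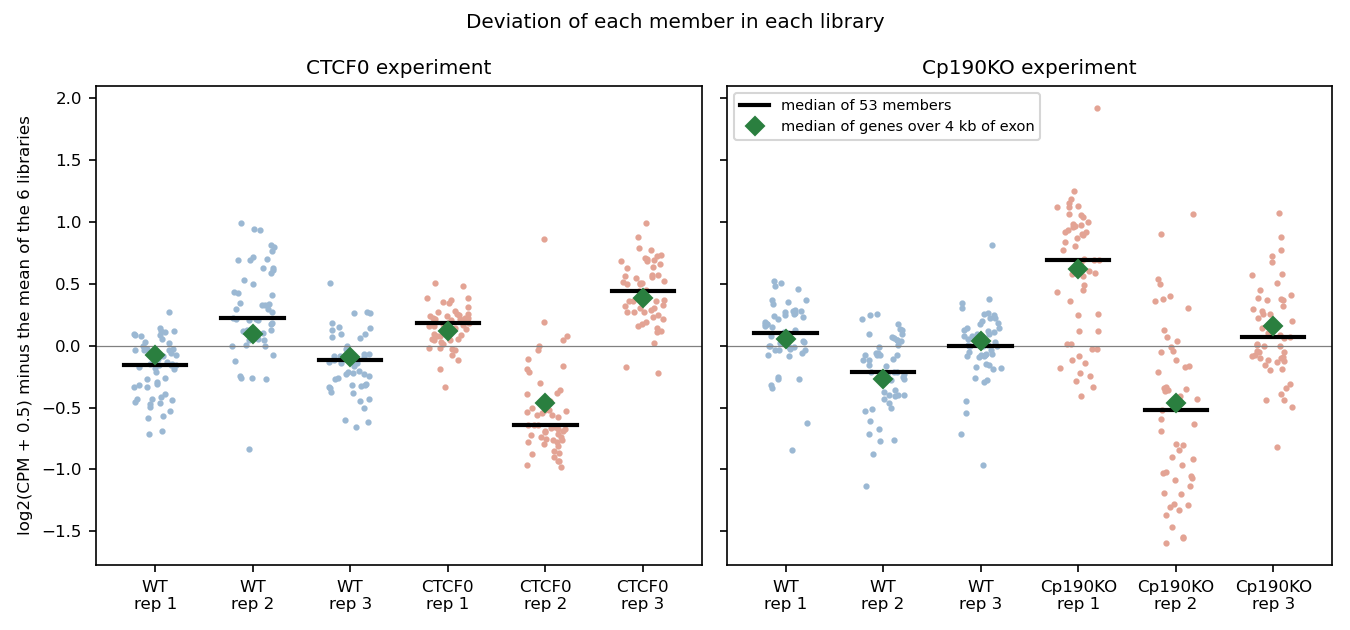
Deviation of each member (dots) in each library from its mean over the 6 libraries of that experiment, in log2(CPM + 0.5), for the CTCF0 (left) and Cp190KO (right) experiments. Black lines are medians of 53 members and green diamonds medians of all genes with over 4 kb of exon; CTCF0 replicate 2 (-0.64) and replicate 2 labelled Cp190KO (-0.52) lie lowest and replicate 1 labelled Cp190KO (0.69) highest.

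In CTCF0 mutant CNSs, *dpr16* was the only member that passed the test. *dpr16* encodes a Dpr protein that binds DIP-gamma. It was counted at 19.2, 15.0 and 17.1 CPM in WT replicates 1 to 3 and at 38.8, 49.7 and 42.2 CPM in CTCF0 replicates 1 to 3. Every CTCF0 library lay above every WT library, and CTCF0 replicate 2, where most other members were lowest, had the highest *dpr16* of the experiment. The means were 17.1 ± 2.12 CPM (SD, n = 3) and 43.6 ± 5.60 CPM, from 174 to 341 reads per WT library and 582 to 702 per CTCF0 library. *dpr16* rose 2.54-fold (log2 fold change 1.35, SE 0.18, edgeR adjusted p = 0.00532). Per length this took it from 5.85 CPM per kb, between *dpr17* and *DIP-theta* in the WT order, to 14.9 CPM per kb.

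A gene passed the test at an adjusted p under 0.05 and a fold change over 1.5. This held for 1 of 53 members and for 2.81% of all 8718 genes tested in CTCF0, so the share of members (1.89%) was not above that of all genes. At an unadjusted p under 0.05 there were 5 members, against 12.1% of all genes. DESeq2 called 2 members, against 4.50% of all genes. The log2 fold change of *dpr16* was 1.20 to 1.44 with each library left out, and its adjusted p reached 0.0518 without WT replicate 3, the single omission that lost the call.

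*dpr16* (FBgn0037295) lies on the plus strand of chromosome 3R from 5150908 to 5170121 in dm6, with 2922 bp of exon. The last 118 bp of these overlap exons of *cno*, the gene of the junction protein Canoe, on the opposite strand. The libraries were made strand-specific, but the strand setting of the counting is not given in the sources used here. *cno* itself did not pass the test (log2 fold change 0.51, SE 0.29, adjusted p = 0.602). The part of *cno* reads in the counts of *dpr16* was not tested. Of 8 other genes within 50 kb of *dpr16*, 3 were expressed enough to be tested and 0 passed in either mutant, with log2 fold changes from -0.33 to 0.51 in CTCF0 and from -0.40 to 0.37 in Cp190KO-labelled CNSs.

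Summed levels of several marker lists did not overlap between WT and CTCF0. The 4 glia markers summed to 321 to 445 CPM in WT and 558 to 757 CPM in CTCF0, with *repo*, *moody* and *alrm* not overlapping between groups and none of them at 0, and 0 of the 4 passed the test. The 4 muscle markers summed to 20.4 to 28.6 CPM in WT and 45.5 to 52.8 CPM in CTCF0, and *Mlc2*, a muscle myosin light chain gene, passed the test. Markers of the ring gland, an endocrine organ attached to the brain, summed to 13.3 to 16.0 CPM in WT and 26.0 to 30.4 CPM in CTCF0, and its hormone gene *Akh* passed. Hemocyte markers summed to 0.285 to 1.55 CPM in WT and 1.84 to 8.56 CPM in CTCF0, with *Hml* not overlapping. The salivary gland gene *Sgs3* was lower in every CTCF0 library (log2 fold change -2.08) and did not pass. The sums of the neuron, neuroblast, eye, fat body and tracheal lists overlapped. Of the eye list, *gl* alone did not overlap between groups, and the log2 fold changes of this list ran from -0.49 to 0.41. The part of all these cell types in the rise of *dpr16* was not tested.

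Below *dpr16*, the largest differences in CTCF0 were those of *dpr4*, *DIP-delta* and *DIP-lambda*, and none of these passed the test. *dpr4*, another partner gene of the DIP family, was counted at 14.0, 23.2 and 15.0 CPM in WT and 30.5, 22.7 and 46.7 CPM in CTCF0. The groups overlapped through WT replicate 2 and CTCF0 replicate 2 (log2 fold change 0.94, SE 0.31, adjusted p = 0.233). Without CTCF0 replicate 2 the log2 fold change of *dpr4* was 1.11 and its adjusted p 0.043. Of its 2994 bp of exon, 469 bp lie opposite an antisense gene.

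*DIP-delta*, which encodes the receptor of Dpr12, had the lowest log2 fold change of any member in CTCF0. Its counts were 12.5, 19.3 and 16.9 CPM in WT and 9.23, 6.66 and 10.4 CPM in CTCF0. Every CTCF0 library lay below every WT library, at 16.2 ± 3.44 CPM against 8.76 ± 1.91 CPM (SD, n = 3; log2 fold change -0.89, SE 0.25, adjusted p = 0.155). It was past the threshold with DESeq2 (adjusted p = 0.0206) and in edgeR once the trend of each library with exon length was removed (adjusted p = 0.0303), and in 0 of 6 fits that left out a library. Its partner gene *dpr12* had a log2 fold change of 0.17 (SE 0.25).

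*DIP-lambda*, a gene of low level, stood at 4.17, 4.39 and 4.13 CPM in WT and at 7.58, 4.67 and 8.13 CPM in CTCF0. The groups did not overlap, but CTCF0 replicate 2 was close to WT (log2 fold change 0.68, SE 0.26, adjusted p = 0.332, and 0.0446 without that library). Over all members, CTCF0 and WT libraries did not overlap for 5, against 17.4% of all genes. The CTCF0 libraries lay above WT for 3 of these (*dpr16*, *DIP-lambda* and *DIP-gamma*) and below for 2 (*DIP-delta* and *DIP-iota*).

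In CTCF0, 49 of 53 members (92.5%) were within 1.5-fold of WT, as were 87.9% of all genes. The median log2 fold change was 0.24 for dpr genes (16 above 0, 5 below), 0.23 for DIP genes (9 above, 2 below), 0.05 for side genes (4 and 4) and -0.17 for beat genes (1 above, 12 below). Over all members it was 0.10, with 30 of 53 above 0, against 0.01 and 51.2% over all genes. These medians depend on single libraries. Without CTCF0 replicate 2, 7 of 13 beat genes were above 0 (median 0.01), and without WT replicate 2 there were 6. Without CTCF0 replicate 3, 8 of 21 dpr genes were above 0 (median -0.03). No family kept the sign of its median in all 6 fits that left out a library.

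**Figure D3:**
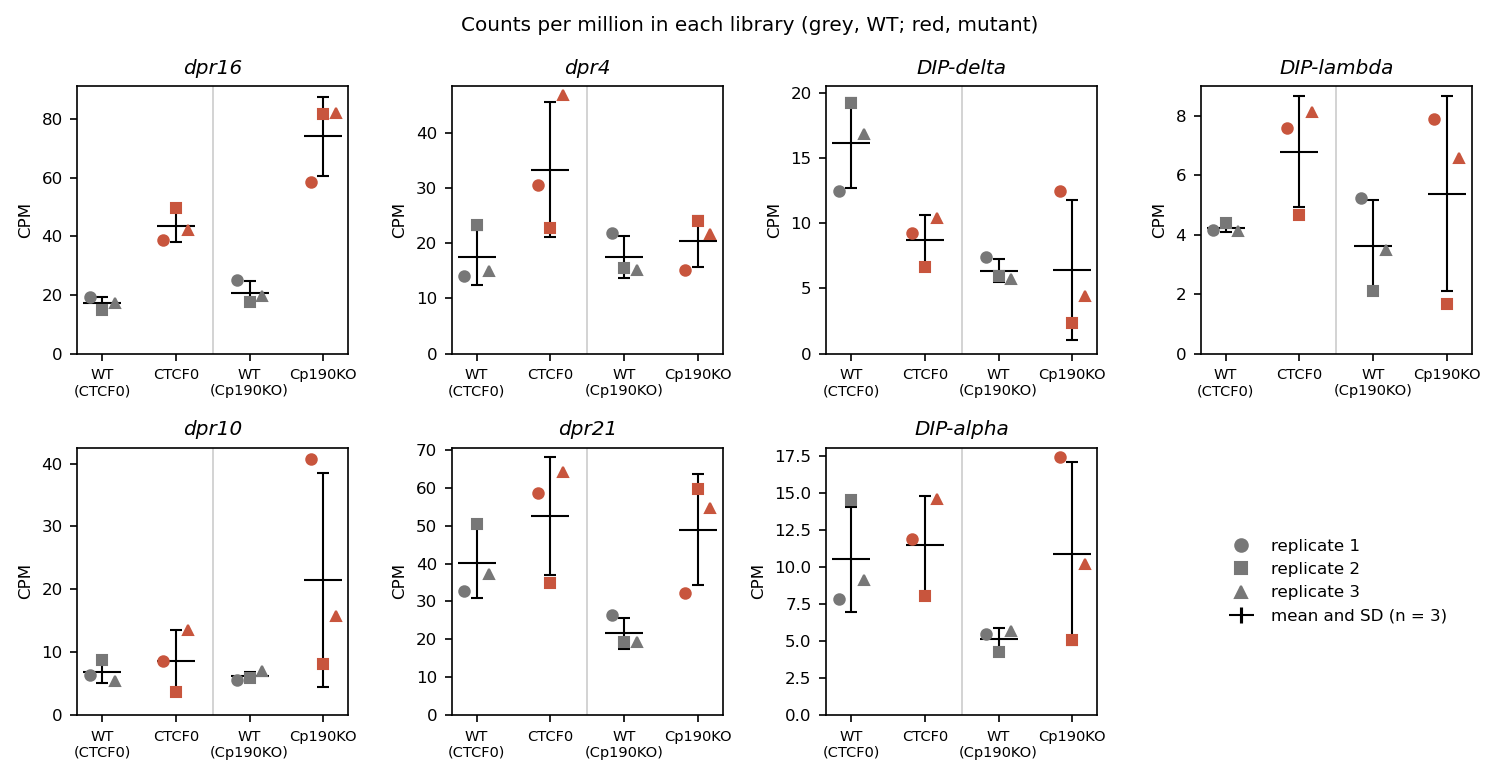
Normalized counts (CPM) of 7 members in each of the 12 libraries. The members are *dpr16* and, for each experiment, the 3 with the largest differences among those that did not pass. WT is grey and mutant red, symbols give the replicate, and the mean and SD of 3 libraries are in black. *dpr16* is the gene whose mutant libraries lie far above WT in both experiments (38.8 to 49.7 against 15.0 to 19.2 CPM, and 58.7 to 82.3 against 17.5 to 25.0 CPM).

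In CNSs labelled Cp190KO, *dpr16* was again the only member that passed the test. It was counted at 25.0, 17.5 and 19.7 CPM in WT replicates 1 to 3 and at 58.7, 81.9 and 82.3 CPM in replicates 1 to 3 labelled Cp190KO. The groups were far apart, and the mutant libraries ran against the shift of the other members, with *dpr16* lowest in replicate 1. The means were 20.8 ± 3.88 CPM and 74.3 ± 13.5 CPM (SD, n = 3), from 284 to 509 reads per WT library and 1251 to 1488 per mutant library. *dpr16* rose 3.58-fold in these libraries (log2 fold change 1.84, SE 0.22, adjusted p = 0.00672), or from 7.10 to 25.4 CPM per kb. The log2 fold change was 1.71 to 1.99 with each library left out, and the adjusted p was 0.0746 without WT replicate 2 and 0.0629 without WT replicate 3.

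The 1 member of 53 compares with 2.41% of all 8599 genes tested in this experiment. Unadjusted p-values were under 0.05 for 6 members, against 13.1% of all genes, and DESeq2 called 3 members, against 5.12%. *dpr16* was among 24 genes that passed the test as higher in both mutants, out of 49 that passed in both, of which 22 were lower in both. The sums of the glia markers differed between groups, at 405 to 530 CPM in WT and 628 to 1017 CPM in libraries labelled Cp190KO. *moody*, *Gs2* and *alrm* did not overlap, none was at 0 and 0 of 4 passed the test. Log2 fold changes of the glia markers ran from -0.38 to 1.25 here, so they did not all rise, against 0.21 to 1.21 in CTCF0. Muscle markers overlapped between these groups (49.8 to 69.0 against 35.2 to 108 CPM). Eye markers, at a low level, summed to 9.64 to 10.9 CPM in WT and 11.8 to 12.9 CPM in the mutant, with *gl* not overlapping. Their log2 fold changes ran from -0.48 to 1.33, so this list split in direction. Hemocyte markers summed to 0.308 to 0.884 CPM in WT and 0.774 to 4.73 CPM in the mutant. These sums overlapped, but *Hml*, too low to be tested here, did not overlap between groups. Of the ring gland list, whose sums overlapped, *dib* alone did not overlap. The part of these cells in the rise was not tested.

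*dpr10*, *dpr21* and *DIP-alpha* had the next largest differences. *dpr10* encodes a ligand of DIP-alpha and was counted at 5.56, 5.92 and 6.97 CPM in WT and at 40.7, 8.14 and 15.7 CPM in libraries labelled Cp190KO. All mutant libraries were above WT, yet most of the difference came from replicate 1, and the spread left it short of the threshold (log2 fold change 1.81, SE 0.57, adjusted p = 0.231). Without replicate 1 labelled Cp190KO the log2 fold change of *dpr10* was 0.96 (adjusted p = 0.271), and without replicate 2 it was 2.19 (adjusted p = 0.00636). DESeq2 called it (adjusted p = 0.0237).

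*DIP-alpha*, the receptor gene of the same pair, was counted at 5.46, 4.25 and 5.65 CPM in WT and at 17.4, 5.09 and 10.2 CPM in libraries labelled Cp190KO. It was highest in replicate 1, as were 35 of 53 members and 26.1% of all genes. Replicate 2 overlapped with WT (log2 fold change 1.09, SE 0.44, adjusted p = 0.347, and 0.0273 without replicate 2). *dpr6*, the other ligand gene of DIP-alpha and the chromosomal neighbour of *dpr10*, had a log2 fold change of 0.35 (SE 0.57). In CTCF0 the 3 genes had log2 fold changes of 0.34 (*dpr10*), 0.14 (*DIP-alpha*) and -0.34 (*dpr6*).

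*dpr21*, the most highly expressed dpr gene per kb, was counted at 26.3, 19.2 and 19.2 CPM in WT and at 32.1, 59.8 and 54.6 CPM in libraries labelled Cp190KO. The groups did not overlap, and as with *dpr16* the lowest mutant library was replicate 1 (log2 fold change 1.18, SE 0.27, adjusted p = 0.0887). *dpr21* was past the threshold without replicate 1 labelled Cp190KO (log2 fold change 1.41, adjusted p = 0.0219) and with DESeq2 (adjusted p = 0.00377). In CTCF0 it stood at 58.6, 34.8 and 64.1 CPM, overlapping with 32.8, 50.5 and 37.1 CPM in WT (log2 fold change 0.39, SE 0.27).

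Libraries labelled Cp190KO and WT libraries did not overlap for 7 members, against 19.8% of all genes. The mutant libraries lay above WT for 5 of these (*dpr10*, *dpr16*, *dpr19*, *dpr21* and *DIP-kappa*) and below for 2 (*DIP-iota* and *beat-IIa*). *beat-IIa*, the highest beat gene, had a log2 fold change of -0.38 (SE 0.16, adjusted p = 0.368). Within 1.5-fold of WT were 45 of 53 members (84.9%), against 85.8% of all genes, and the median log2 fold change was 0.35 for dpr, 0.16 for DIP, 0.01 for beat and 0.11 for side genes. Of all members, 37 were above 0 (median 0.13), against 58.5% of all genes (median 0.08). These signs depend on single libraries. Without replicate 1 labelled Cp190KO, 9 of 21 dpr genes and 0 of 8 side genes were above 0, and without replicate 2 labelled Cp190KO there were 17 and 8. Without WT replicate 2, 4 of 13 beat genes (median -0.06) and 4 of 8 side genes were above 0.

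**Figure D4:**
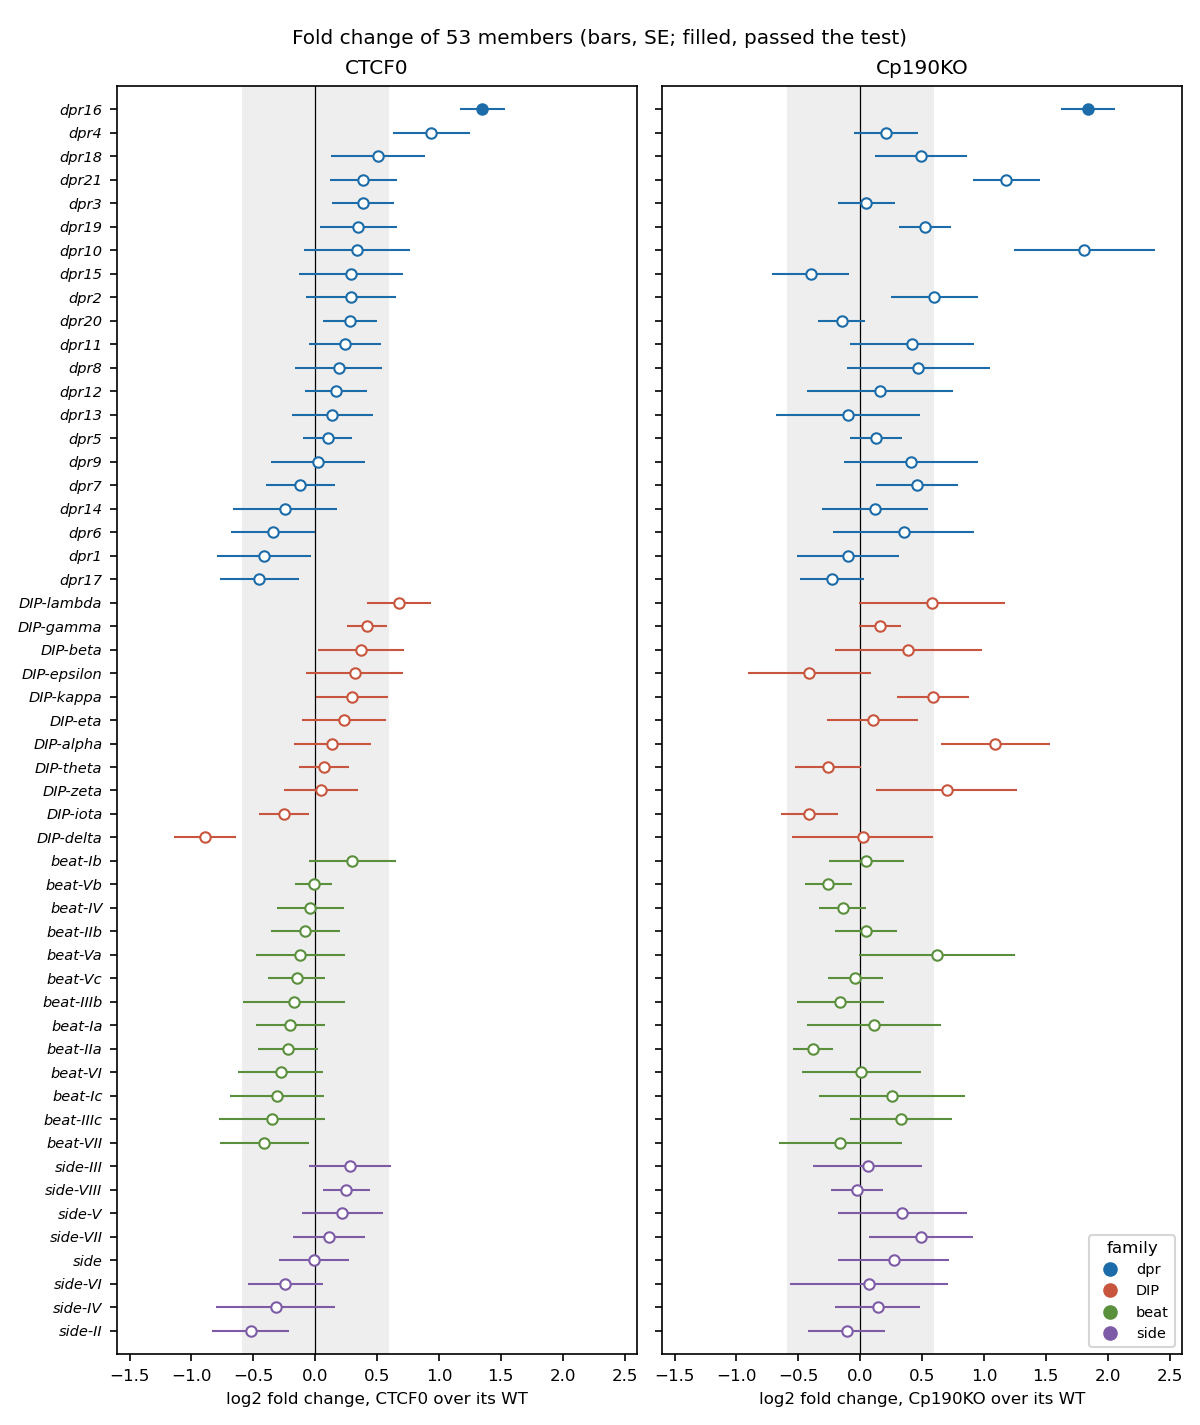
Log2 fold change of each of the 53 tested members in CTCF0 (left) and in libraries labelled Cp190KO (right) over its own WT, by family (colour) and ordered by the CTCF0 value; bars are SE, filled points passed the test and the grey band is a fold change under 1.5. *dpr16* is the filled point in both panels (1.35 and 1.84), and 49 and 45 members lie within the band.

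A difference between mutants in the change of *dpr16* was not detectable. The difference of its log2 fold changes, CTCF0 minus Cp190KO, was -0.49 (SE 0.29, edgeR on all 12 libraries, adjusted p = 0.988), which does not show that both changes are equal. No member passed the test of the difference (0 of 53, against 1.42% of all 8954 genes), and none had an unadjusted p under 0.05 there, against 6.89% of all genes. DESeq2 called 0 members as well, against 2.38% of all genes. The most negative difference of a member was that of *dpr10* (-1.46, SE 0.74) and the most positive that of *DIP-epsilon* (0.74). The median SE of a member was 0.55 in this test, against 0.31 in CTCF0 and 0.37 in Cp190KO, so only large differences between mutants could be detected.

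The known partners of Dpr16 did not pass the test in either mutant. *DIP-gamma*, the gene of its receptor, was counted at 49.6, 42.1 and 39.7 CPM in WT and at 58.7, 57.6 and 59.4 CPM in CTCF0. The CTCF0 libraries were close together and all above WT (log2 fold change 0.42, SE 0.16, adjusted p = 0.314). In the other experiment *DIP-gamma* stood at 56.7, 56.7 and 57.0 CPM in WT and 56.4, 77.4 and 56.6 CPM in libraries labelled Cp190KO, which overlapped (0.16, SE 0.17). The genes of the other Dpr proteins that bind DIP-gamma had log2 fold changes of 0.24 in CTCF0 and 0.42 in Cp190KO (*dpr11*), 0.29 and -0.40 (*dpr15*), and -0.45 and -0.23 (*dpr17*). *dpr16* was thus the 1 gene of this set of 5 that passed.

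No gene of the Beat and Side pairs passed the test. *side* and *beat-Ia*, the motor axon guidance pair, had log2 fold changes of -0.01 (SE 0.28) and -0.20 (SE 0.28) in CTCF0, and of 0.27 (SE 0.45) and 0.11 (SE 0.54) in libraries labelled Cp190KO. *side-IV* had -0.32 (SE 0.48) and 0.14 (SE 0.34), and its partner gene *beat-IIb* had -0.08 (SE 0.28) and 0.05 (SE 0.25). Each of these values was smaller than its SE. For *beat-IIa*, the other partner gene of *side-IV*, the values were -0.22 (SE 0.24) in CTCF0 and -0.38 (SE 0.16) in libraries labelled Cp190KO, which all lay below WT.

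Other genes of axon guidance and synaptic matching, from a list of 58 such as the Dscam, teneurin, semaphorin, Robo and Toll-family genes were also followed. Of these, 53 were tested in each comparison, and 0 passed in CTCF0, in Cp190KO-labelled CNSs or in the difference (edgeR), against 2.81%, 2.41% and 1.42% of all genes. At an unadjusted p under 0.05 there were 2, 1 and 0, against 12.1%, 13.1% and 6.89% of all genes. Their median log2 fold change was 0.11 in CTCF0 and 0.33 in libraries labelled Cp190KO, against 0.01 and 0.08 over all genes. As with the members, these medians rest on single libraries: they were -0.12 without CTCF0 replicate 3 and -0.18 without replicate 1 labelled Cp190KO. The largest value in CTCF0 was that of *bdl*, which encodes an immunoglobulin protein of the visual system (1.01, SE 0.22, adjusted p = 0.0519). *bdl* passed without CTCF0 replicate 2 or 3, and without replicate 1 labelled Cp190KO, and *sli*, the gene of the Robo ligand Slit, passed without replicate 2 labelled Cp190KO.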

How the data were processed

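mRNA of larval CNSs was sequenced in 12 libraries, and the deposited values are counts per gene. The authors aligned their reads to dm6 together with the gene models of FlyBase, and obtained the counts with htseq-count 0.9.1; the overlap mode and strand setting are not given in the sources used here. The values were whole numbers with no sign of normalization. No filter is stated for them, but replicate 3 labelled Cp190KO holds few genes with 1 to 3 counts (375, against 1738 to 2199 elsewhere), and how its low counts were made is not known. Entries that name no gene, such as reads without a feature (4.62% to 13%) or assigned to several genes (3.59% to 4.54%), stayed out of library sizes. Every library took its group and replicate number from its label.

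Each mutant was compared with its own WT by the quasi-likelihood test of edgeR 4.0.16 (R 4.3.3) after TMM scaling, on every gene that reached 1 CPM in 3 or more of its 6 libraries. P-values are two-sided and Benjamini-Hochberg adjusted over all genes tested. A model of 4 group means over 12 libraries tested the difference between mutants. A gene passed at an adjusted p under 0.05 and a fold change over 1.5. SEs were derived from the F statistic, as the absolute log2 fold change over its square root. CPM are on the TMM scale of each experiment unless a common scale is named, and deviations of libraries used log2(CPM + 0.5). Gene positions, exon lengths (union of exons) and overlaps come from a newer Ensembl annotation of dm6 that lists 17405 of the 17510 genes and all members. Tables and plots were made with Python 3.11.15. The fits were tested on simulated counts drawn gene by gene, without a shift shared within a library, so that test did not cover such shifts.

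The members and gene lists were chosen with earlier results of these data known. Members were named with every library if they passed a test or had 1 of the 3 largest log2 fold changes among those that did not; the highest and lowest of each family in WT, partners of a member that passed, and the targeted genes were named as well. Partner pairs are background knowledge. Of the 58 other wiring genes, 2 were not analysed here.

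Alternatives were RLE scaling or library sizes alone, DESeq2 1.42.0, no filter or filterByExpr, offsets that remove each library's trend with exon length, the replicate number as a block, other fold thresholds, all 12 libraries in one fit, and each library left out. No libraries were duplicates of each other.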

Additional observations from a re-analysis of the deposited data

How the results depend on the processing

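Members that passed the test numbered 1 (*dpr16*) in each mutant. DESeq2 gave 2 in CTCF0 and 3 in Cp190KO (of 392 and 440 genes in all, against 245 and 207 in edgeR), adding *DIP-delta*, and *dpr10* and *dpr21*. Length offsets gave 2 in CTCF0 (with *DIP-delta*). No filter gave 2 in Cp190KO, and so did all 12 libraries in one fit (both with *dpr21*). With each library left out, the number was 0 to 3 in CTCF0 and 0 to 3 in Cp190KO. It was 0 without WT (CTCF0 control) replicate 3, and without WT (Cp190KO control) replicate 2 or 3. It was 3 without CTCF0 replicate 2 (with *dpr4* and *DIP-lambda*) and without Cp190KO replicate 2 (with *dpr10* and *DIP-alpha*), and 2 without Cp190KO replicate 1 (with *dpr21*). The cause of these shifts was not tested. The difference between mutants gave 0 members under every alternative run. *dpr16* kept its sign in all fits, and outside the omissions of a library it had log2 fold changes of 1.29 to 1.40 in CTCF0 and 1.77 to 1.84 in Cp190KO. The median over the members was -0.13 to 0.27 in CTCF0 and -0.17 to 0.39 in Cp190KO with each library left out, so its sign was not stable.

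With the replicate block, 1 member passed in CTCF0, 1 in Cp190KO and 0 in the difference, and *dpr16* had adjusted p-values of 0.037 and 0.0404. The deviations of same-numbered libraries correlated at -0.53 to -0.18 in CTCF0 and -0.01 to 0.51 in Cp190KO. Those of differently numbered libraries correlated at -0.28 to 0.56 and -0.39 to 0.40. The highest value in Cp190KO was thus that of a same-numbered pair, while in CTCF0 all same-numbered pairs were negative. The numbers were not taken to pair the samples.

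By rule, no change under 1.5-fold passed the test. With 3 libraries a group and a median SE of 0.31 to 0.37, larger changes of single members were also missed. In edgeR, *dpr10* (3.50-fold, adjusted p = 0.231) and *dpr21* (2.26-fold, 0.0887) did not pass in libraries labelled Cp190KO. Neither did *dpr4* in CTCF0 (1.92-fold, 0.233), while *dpr16* passed at 2.54-fold in CTCF0. Members that did not pass were thus not shown to be unchanged. Changes in a few neurons of a whole CNS were mostly beyond detection. The labelled Cp190KO libraries keep most *Cp190* counts. Overlapping exons leave *beat-IIIa* unmeasured.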

Other observations

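The families shifted up in replicate 1 labelled Cp190KO and down in replicate 2. A group of 8 members lay in reverse, below their mean over 6 libraries in replicate 1 and above it in replicate 2. They were *DIP-gamma*, *DIP-theta*, *beat-Vb*, *beat-Vc*, *dpr2*, *dpr4*, *dpr5* and *dpr20*, and were picked from these values, so no test was made. Their median deviation from the mean of 6 libraries, in log2(CPM + 0.5), was -0.21 in replicate 1 and 0.33 in replicate 2, against 0.80 and -0.79 for the other 45 members. In the other experiment their medians were -0.15 in CTCF0 replicate 2 and 0.21 in CTCF0 replicate 3, against -0.67 and 0.50 for the other members. Single genes of the 8 did follow the shift there, such as *dpr2*, with 4.75 CPM in replicate 2 and 12.8 CPM in replicate 3, and *dpr4*, with 22.7 and 46.7 CPM. Their median log2 ratio between the WT controls was -0.07, against 0.54. Their exons had a median length of 2799 bp, against 3598 bp, and the part of length in the contrast was not tested. The mean over 6 libraries takes in WT, so members higher in all mutant libraries were not picked. Of the other 45, *dpr16* (58.7 and 81.9 CPM), *dpr21* (32.1 and 59.8) and *dpr19* (26.3 and 34.5) were also lower in replicate 1 labelled Cp190KO than in replicate 2. So were *beat-IV* (18.7 and 21.1 CPM) and *DIP-iota* (8.78 and 9.27). The share of all genes with this pattern was not counted.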
